A study of Homo sapiens with 6 samples.

Results

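The genes described here are the ZNF genes expressed in FUJIOKA, a line of human acute myeloid leukaemia cells. They were chosen by their measured mean level, and are the genes of the deposited gene table whose symbol is ZNF followed by a number and at most 1 letter and whose mean over the 6 libraries, in reads scaled to a common depth, was 500 or more. Of 63236 genes in the table, 585 carry such a symbol and 217 of these reached the mean. The choice used only the mean level, so the levels are given as a description. The difference between the groups was not used, but a gene low in 1 group could pass the limit only through the other group. The control group, shNEG, has 3 libraries of cells carrying a scrambled shRNA, and the silenced group, shSPINK2, has 3 libraries of cells carrying an shRNA against SPINK2, a Kazal-type serine protease inhibitor. Both groups are the same line, transduced with the lentiviral Tet-pLKO-puro vector, in which doxycycline switches the hairpin on. The labels describe 2 SPINK2 shRNAs and the methods 1, whose sequence is that of shRNA1 below. No source says which shRNA a library carries. How long the cells had been on doxycycline when RNA was made is not given in the sources used here. Nothing says that the libraries come from separate cultures, so p-values measure only the spread between these libraries.

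ZNF proteins bind DNA, and in some cases RNA, through C2H2 zinc fingers, short loops that each hold a zinc ion between a pair of cysteines and a pair of histidines. In the largest class a KRAB box at the start of the protein recruits the scaffold TRIM28 and with it the methyltransferase SETDB1, which silence retroelements and other targets by methylation of histone H3 at lysine 9. Many of these genes arose by tandem duplication and lie in clusters, above all on chromosome 19, whereas ZNF genes without a KRAB box include regulators of transcription, splicing and the ribosome.

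The values are whole reads per library, which are not in the deposited table and were solved for all 217 genes from the deposited mean together with the authors' fold change and its standard error. The mean alone left 38 or more solutions for every gene, so the differences between the groups are not independent of the authors' comparison, and only the reads of single libraries are added to it. The libraries were placed in their group by the sign of the authors' fold change in genes with 1 read in all, and its direction, shSPINK2 relative to shNEG, was read from the study's methods. Libraries are named by group and a letter in order of their size factor, since no replicate number can be given to them. The genes tested held 21490171 to 22427480 reads per library, and the size factors lay within 4.85% of the smallest. SPINK2 had 53, 63 and 56 reads in shNEG and 6, 9 and 7 in shSPINK2 (log2 fold change -2.83, SE 0.26, limma adjusted p = 9.87e-12), which is the direction of the labels. Of 7 myeloid markers, MPO, CD33, PTPRC, SPI1 and CEBPA had means of 1844 or more, CD34 a mean of 19.6 and KIT a mean of 0.67. Among markers of other cells, HBB and EPCAM were at 0, CD3E had a mean of 0.50 and COL1A1, a fibroblast collagen, a mean of 149. COL1A1 had 186, 172 and 182 reads in shNEG against 122, 114 and 122 in shSPINK2, and the summed reads of the 4 myeloid markers tested were 16820 to 17416 and 20318 to 21435. The myeloid markers did not move together, since CD33 (log2 fold change 0.36) and PTPRC (0.32) were called higher and MPO (-0.40) and CD34 (-0.83) lower. These values move with the groups and their part in the results below was not tested. Fewer cells of a type and less RNA per cell cannot be told apart in such libraries.

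After SPINK2 silencing the expressed ZNF genes moved in both directions and by small amounts. Of the 217 genes, 68 were lower in shSPINK2 and 80 higher at a limma adjusted p under 0.05, and 69 did not pass. Over all 15449 genes tested, 29.5% were called lower and 28.1% higher, and over the 8185 of them with a mean of 500 or more, 39.1% and 32.8%. The ZNF genes called lower were 31.3% and those called higher 36.9%, so their lower calls lay between these backgrounds and their higher calls slightly above both. Their median log2 fold change was 0.02, against -0.02 over the 7968 other genes with a mean of 500 or more and 0.00 over all genes tested. This median lay between 0.0058 and 0.028 with each library left out, was 0.057 with the libraries centred on their median, and was -0.026 over the ZNF genes with a mean of 1000 or more, so its sign depends on the limit set on the mean. The libraries of the groups did not overlap in 151 of the 217 genes (69.6%), against 61.6% of all genes tested and 74.8% of the other genes with a mean of 500 or more, a share between these backgrounds.

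The changes were small in size. None of the 217 ZNF genes with a mean of 500 or more passed an absolute log2 fold change of 1. Together with the adjusted p, 247 of the 7968 other genes with a mean of 500 or more did, and 4.73% of all genes tested. At a log2 fold change of 0.5, 10 of the 217 ZNF genes were lower and 8 higher. Among those 7968 genes 902 were lower and 505 higher, and over all genes tested 21.4% passed in both directions together. The shares over all genes tested include genes of low mean. The median absolute log2 fold change was 0.19, against 0.23 over the other genes with a mean of 500 or more. The precision was similar across the group, with standard errors from 0.04 to 0.08, so that the smallest change called was 0.11. The coefficient of variation among replicates had a median of 2.81% in shNEG and 4.77% in shSPINK2.

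**Figure D1:**
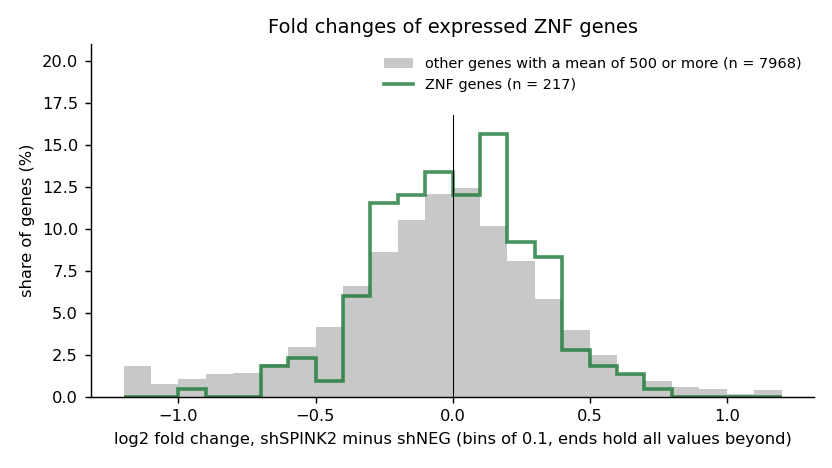
Share of genes in percent (vertical axis) by log2 fold change of shSPINK2 minus shNEG (horizontal axis, bins of 0.1), for the 217 ZNF genes (green line) and the 7968 other genes with a mean of 500 or more (grey). The ZNF genes reach from -0.93 to 0.73 around a median of 0.02. The bins at either end hold all values beyond.

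ZNF367 fell furthest. It is a protein of few fingers encoded on chromosome 9 (96385941 to 96418370, GRCh38), and its reads were 699, 716 and 730 in shNEG against 351, 382 and 406 in shSPINK2. Every shSPINK2 library lay below every shNEG library, and the log2 fold change was -0.93 (SE 0.07, limma adjusted p = 1.85e-14), a level 0.526 times that of the control. ZNF212, on chromosome 7, had 919, 932 and 950 reads in shNEG and 565, 529 and 684 in shSPINK2, a log2 fold change of -0.68 (SE 0.07, adjusted p = 6.87e-11). Its shSPINK2 libraries were spread more widely than its controls (SD 69.9 against 13.7 scaled reads) but did not reach them.

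The next 6 lowest genes were of the same size of change. ZNF714, a gene of chromosome 19 with 12 fingers, had 822, 902 and 786 reads in shNEG and 538, 545 and 536 in shSPINK2 (log2 fold change -0.64, SE 0.06). ZNF530, with a KRAB box and 13 fingers, went from 657, 656 and 701 reads to 422, 436 and 449 (log2 fold change -0.63, SE 0.06). ZNF275, on the X chromosome, went from 1391, 1432 and 1402 reads to 873, 937 and 958 (log2 fold change -0.62, SE 0.05). In all 3 the groups stood well apart. ZNF486 (log2 fold change -0.59) and ZNF273 (-0.58) are KRAB genes of chromosomes 19 and 7, and ZNF395 (-0.55), with 2382, 2508 and 2474 reads against 1628, 1746 and 1712, is also known as papillomavirus binding factor. Their groups did not overlap either, and the largest adjusted p among these 6 genes was 6.52e-10.

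The highest gene was ZNF252P, a transcribed pseudogene of chromosome 8. It had 603, 575 and 605 reads in shNEG and 999, 1071 and 914 in shSPINK2 (log2 fold change 0.73, SE 0.06, limma adjusted p = 3.25e-12). ZNF189, a KRAB gene of chromosome 9 with 16 fingers, rose from 831, 841 and 849 reads to 1301, 1465 and 1284 (log2 fold change 0.67, SE 0.06). ZNF438, on chromosome 10, rose from 1070, 1081 and 1123 reads to 1756, 1767 and 1581 (log2 fold change 0.63, SE 0.06). In these 3 genes the lowest shSPINK2 library was far above the highest control. ZNF397, a protein with a SCAN domain, rose by 0.60 on the log2 scale, and 4 KRAB genes of chromosome 19 followed, ZNF440 by 0.54, ZNF561 by 0.53, ZNF616 by 0.52 and ZNF627 by 0.50. ZNF561 had the most reads of these, 1632, 1603 and 1628 in shNEG against 2264, 2530 and 2308. The groups were apart in each of the 8 genes, and the largest adjusted p was 2.48e-09, for ZNF440.

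**Figure D2:**
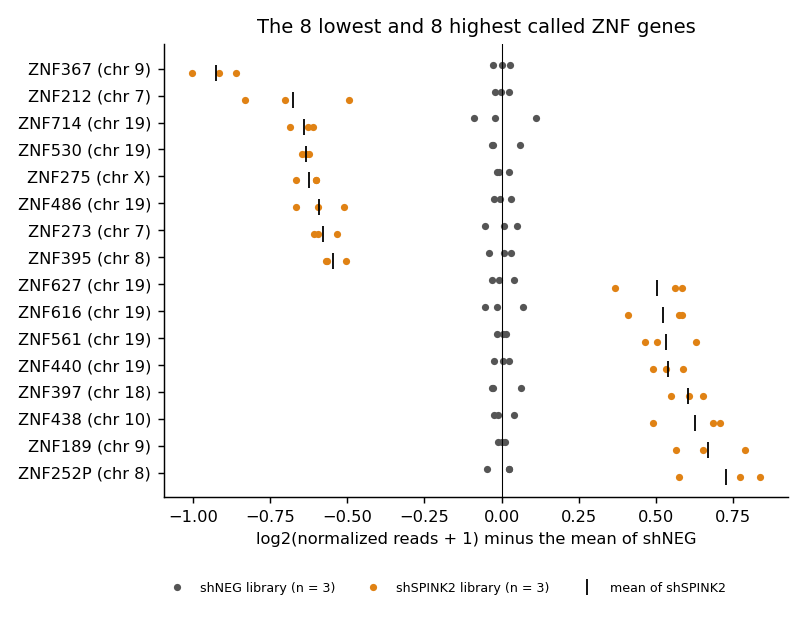
Values of single libraries for the 8 lowest and 8 highest called ZNF genes, as log2 of scaled reads plus 1 after subtraction of the shNEG mean (horizontal axis). Grey points are the 3 shNEG and orange points the 3 shSPINK2 libraries, and the tick is the shSPINK2 mean, which runs from -0.93 for ZNF367 to 0.73 for ZNF252P with no overlap of the groups in any gene.

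The ZNF genes spanned means from 501 to 9573 scaled reads, with a median of 1058. The 3 with the highest means were ZNF664, ZNF207 and ZNF146. Per kilobase of canonical transcript ZNF664 had a mean of 2220 and ZNF146, a protein made almost only of fingers, 2189, while ZNF207, whose annotated transcript is long, had 541. The reads of ZNF664 were 8929, 8802 and 8984 in shNEG against 10227, 10820 and 9965 in shSPINK2 (log2 fold change 0.20, SE 0.04, limma adjusted p = 0.000165). Those of ZNF146 overlapped between the groups, 7459, 7244 and 7377 against 7212, 7905 and 6970, and its log2 fold change was -0.01 (SE 0.05). It changes sign when the libraries are centred on their median (0.03) or shSPINK2 c is left out (0.04).

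At the lower edge, ZNF628 had a mean of 501 and ZNF862 of 505, and the nearest genes left out were ZNF44 with 494 and ZNF182 with 482. ZNF628 had 531, 533 and 541 reads in shNEG and 451, 482 and 482 in shSPINK2, and ZNF862 had 391, 437 and 486 against 617, 527 and 590. The groups did not overlap in either gene, and the log2 fold changes were -0.19 (SE 0.07) and 0.39 (SE 0.08). Each reached a mean of 500 only through the group in which it was higher, so these values support nothing about the genes at the edge. The same limit holds for other genes, among them ZNF367, ZNF530 and ZNF486, whose shSPINK2 means were 376, 432 and 476 scaled reads. ZNF71, ZNF587B and ZNF747 had shSPINK2 means of 478, 477 and 486. It also holds for ZNF350 and ZNF808, whose shNEG means were 463 and 472, and for ZNF720, ZNF500 and ZNF677, with 476, 492 and 495. Such genes remain in the counts of calls and of groups without overlap above. A further 217 ZNF genes had means from 10 to under 500, and of these 37 were called lower and 71 higher, with a median log2 fold change of 0.09. These are 17.05% and 32.72%, against 29.5% and 28.1% of all genes tested, which include genes of higher mean. Among the ZNF genes with means from 10 to under 500, 4 were called with an absolute log2 fold change over 1, against 4.73% of all genes tested. Other genes of the same range of means were not counted.

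Among 7 genes whose proteins act on RNA, the ribosome, the spliceosome or the kinetochore, 3 were lower, 1 higher and 3 did not pass. Of all genes tested with a mean of 500 or more, 39.1% were called lower and 32.8% higher, so counts in lists this short say little about a list. ZNF598, the ubiquitin ligase that marks collided ribosomes, went from 2657, 2630 and 2768 reads to 2175, 2022 and 2322 (log2 fold change -0.32, SE 0.05, limma adjusted p = 7.19e-07). ZNF326, part of a complex that links elongation by RNA polymerase II to splicing, fell by 0.22 on the log2 scale. ZNF207, the BUB3 partner that helps load the spindle checkpoint on kinetochores, had 7874, 8039 and 7940 reads in shNEG and 6535, 7065 and 7411 in shSPINK2 (log2 fold change -0.20, SE 0.04). The groups were apart in these 3 genes. ZNF638, a nuclear protein that binds nucleic acids and recruits silencing to foreign DNA, was the one that rose, by 0.21 on the log2 scale. The log2 fold changes of the others were -0.09 for ZNF346, which binds double-stranded RNA, 0.10 for ZNF622, which takes part in maturation of the large ribosomal subunit, and 0.08 for the spliceosome-associated ZNF830. ZNF593 of the same list had a mean of 4.31 and was below the limit of testing.

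Of 11 chromatin and promoter regulators, 2 were lower, 3 higher and 6 did not pass, where the shares at a mean of 500 or more were 39.1% and 32.8%. ZNF335, a component of histone H3 lysine 4 methyltransferase complexes, fell from 1044, 1199 and 1114 reads to 856, 777 and 937 (log2 fold change -0.40, SE 0.06, limma adjusted p = 8.84e-07). ZNF592, which binds ZMYND8 together with ZNF687, fell by 0.21 on the log2 scale, while ZNF687 itself overlapped between the groups at -0.05. ZNF217, an oncogene that works with CoREST, rose from 1766, 1743 and 1856 reads to 2080, 2256 and 2068 (log2 fold change 0.24, SE 0.05). ZNF644, a partner of the methyltransferases EHMT1 and EHMT2, and the SUMO ligase ZNF451 both rose by 0.18. Without shSPINK2 b, ZNF644 was at 0.11.

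The log2 fold changes of the remaining 5 of these regulators were -0.10 for ZNF143, an activator bound at promoters and loop anchors, 0.09 for ZNF148, 0.05 for ZNF281, -0.10 for ZNF384, which is fused in some acute B-cell leukaemias, and -0.05 for ZNF609. ZNF281 changes sign, to -0.01, without shSPINK2 b. ZNF143 passes without shSPINK2 b, ZNF148 without shSPINK2 c or with centred libraries, and ZNF384 without shNEG a or without shSPINK2 b. ZNF410 of this list, with a mean of 54.7, is below the level of the group and was at -0.37 (SE 0.18, limma adjusted p = 0.0738).

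ZNF385A was the one gene of a list of 2 with a blood function that could be tested. It encodes a p53-binding protein that also acts in megakaryocyte formation, and its reads were 1368, 1448 and 1514 in shNEG against 1962, 2023 and 2128 in shSPINK2. All shSPINK2 libraries were above the controls (log2 fold change 0.49, SE 0.05, limma adjusted p = 1.39e-10). ZNF521, a regulator of early blood progenitors in the same list, had a mean of 0.50 and was not tested.

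Of 6 expressed KRAB proteins with a known class of target, 3 were lower and 2 higher. The shares over all genes with a mean of 500 or more were 39.1% and 32.8%. ZNF93, which silences LINE-1 elements, went from 1882, 1922 and 2019 reads to 1490, 1623 and 1556 (log2 fold change -0.33, SE 0.05). ZNF445, a keeper of genomic imprints, fell by 0.30 on the log2 scale, and ZNF274, which brings SETDB1 to the 3′ ends of ZNF genes themselves, fell by 0.26, from 1069, 1110 and 1170 reads to 961, 913 and 947. ZNF224, a transcriptional cofactor of WT1, and ZNF350, a BRCA1 partner, both rose by 0.31. ZNF263 overlapped between the groups at -0.05. The largest adjusted p among the 5 called was 0.000139 (limma). ZNF91, a repressor of SVA elements in the same list, had a mean of 244 and was at 0.15 (SE 0.09, adjusted p = 0.177).

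Genes for KRAB cofactors and for chromatin proteins related to them were looked at in 1 list. Of 23 genes listed, 19 could be tested, of which 9 were lower, 2 higher and 8 did not pass, with a median log2 fold change of -0.10. Of all genes with a mean of 500 or more, 39.1% were called lower and 32.8% higher, and of all genes tested 29.5% and 28.1%. The list was not tested against these shares. UHRF1, which maintains DNA methylation at replication, had 3677, 3747 and 3767 reads in shNEG and 1502, 1432 and 1444 in shSPINK2 (log2 fold change -1.37, SE 0.05, limma adjusted p = 2.61e-23). EHMT1, a methyltransferase of histone H3 lysine 9, fell by 0.47 on the log2 scale. WIZ, its zinc finger partner, fell by 0.30 and the deacetylase HDAC2 by 0.32. ATF7IP, PPHLN1, CBX3, EHMT2 and CBX1 fell by 0.10 to 0.20. SETDB1 rose from 2443, 2520 and 2547 reads to 2908, 2946 and 2960 (log2 fold change 0.22, SE 0.04), and TRIM24 by 0.17. The groups did not overlap in any of the 11 genes called. The central scaffold TRIM28, with a mean of 24965, and CHD3, CHD4 and DNMT1 lay above 10000 scaled reads, where single libraries were not recovered, so they were not tested. The number of genes of this list called was 15 without shSPINK2 b and 10 or 11 in the other settings tried.

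**Figure D3:**
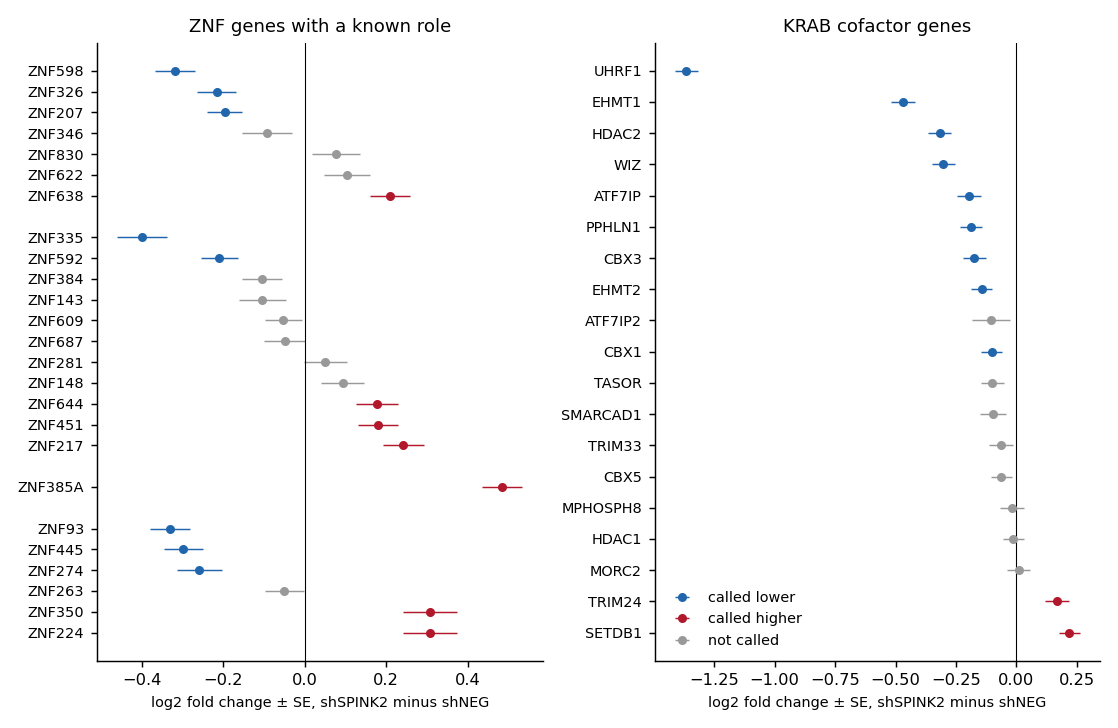
Log2 fold changes of shSPINK2 minus shNEG (horizontal axis, bars are the standard error). On the left are ZNF genes with a known role, in blocks for RNA and ribosome, chromatin, blood and KRAB proteins with a known target class. On the right are genes for KRAB cofactors and related chromatin proteins. Blue genes were called lower, red higher and grey did not pass. On the left ZNF335 (-0.40) and ZNF93 (-0.33) are lowest and ZNF385A (0.49) is highest, and UHRF1 at -1.37 stands apart on the right.

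Position along the genome was not used to choose the genes. Of the 217, 97 lie on chromosome 19, and of these 22 were called lower and 42 higher, with a median log2 fold change of 0.08. Of the 120 on other chromosomes, 46 were lower and 38 higher, with a median of -0.04. The 452 other genes of chromosome 19 with a mean of 500 or more had 186 lower and 145 higher calls and a median of -0.05. With each library left out in turn, 21 to 23 of the chromosome 19 genes were called lower and 32 to 41 higher, the fewest higher calls being those without shNEG a.

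Neighbours on chromosome 19 often differed in direction. With genes under 1 Mb apart joined, the 97 genes formed 16 groups. The shares over all genes tested with a mean of 500 or more were 39.1% lower and 32.8% higher. The group from ZNF101 to ZNF100 (19668796 to 21767579, GRCh38) held 9 genes, of which 5 were lower and 0 higher, with a median of -0.33. The group from ZNF627 to ZNF791 (11559374 to 12633840) held 7 genes, of which 5 were higher and 2 lower. In the largest group, the 27 genes from ZNF628 to ZNF324, 11 were higher and 8 lower, between -0.63 for ZNF530 and 0.44 for ZNF581. In the 23 genes from ZNF175 to ZNF813, 11 were higher and 3 lower, up to 0.52 for ZNF616. Genes of these groups named beyond the lists above were chosen after their values were seen, and no group was tested against another.

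**Figure D4:**
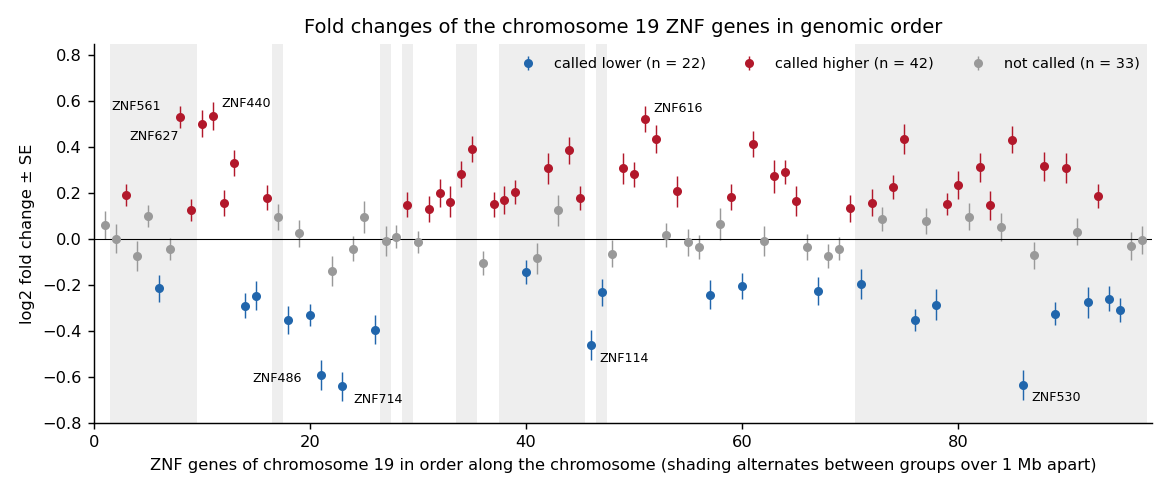
Log2 fold change of shSPINK2 minus shNEG with its standard error (vertical axis) for the 97 ZNF genes of chromosome 19 in order along the chromosome (horizontal axis). Shading alternates between groups of genes more than 1 Mb apart. Blue genes were called lower (22), red higher (42) and grey did not pass (33). The run of low values around ZNF714 and ZNF486 lies in the group with 5 lower and 0 higher calls. Over all genes tested with a mean of 500 or more, 39.1% were called lower and 32.8% higher.

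Several genes of the low group on chromosome 19 and others on chromosome 7 have promoters of like sequence. RefSeq promoters (GRCh38.p14) were matched for 185 of the 217 genes, and the 120 bases before the start were aligned in all 17020 pairs, whose median identity was 48.1%. Linking pairs with an identity of 80% or more gave a family of 10 genes, 6 on chromosome 19 and 4 on chromosome 7. The family, its link and the genes named only here were chosen after the values were seen. The stretches of its lowest pair, of the least changed gene and of a member on chromosome 7 are shown because they are 81.1% to 93.3% identical to each other while the changes of the genes run from -0.64 to -0.04. Capitals mark CCAAT boxes and the ETS-type word CCGGAAG, on either strand, as well as the E2F-type word TTTGGCGC in ZNF486.
ZNF714, chr19:21082083-21082202, plus strand: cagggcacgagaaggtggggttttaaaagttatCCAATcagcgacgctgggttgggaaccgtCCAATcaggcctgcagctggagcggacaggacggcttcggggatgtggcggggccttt
ZNF486, chr19:20167094-20167213, plus strand: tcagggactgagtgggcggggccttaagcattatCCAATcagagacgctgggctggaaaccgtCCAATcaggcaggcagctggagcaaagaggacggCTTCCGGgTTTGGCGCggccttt
ZNF431, chr19:21141920-21142039, plus strand: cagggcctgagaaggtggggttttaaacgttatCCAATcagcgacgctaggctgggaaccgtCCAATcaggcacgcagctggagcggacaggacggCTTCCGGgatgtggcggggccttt
ZNF680, chr7:64563072-64563191, minus strand: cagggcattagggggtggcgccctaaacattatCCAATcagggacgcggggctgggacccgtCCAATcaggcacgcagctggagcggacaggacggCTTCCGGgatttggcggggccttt

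Of the 10 genes of this promoter family, 8 were called lower, 0 higher and 2 did not pass, and their median log2 fold change was -0.25. Of all genes tested with a mean of 500 or more, 39.1% were called lower and 32.8% higher. The lowest were ZNF714 (-0.64), ZNF486 (-0.59), ZNF100 (-0.39) and ZNF93 (-0.33), all on chromosome 19. On chromosome 7, ZNF92 was at -0.28 (SE 0.06), ZNF680 at -0.22 (SE 0.07), ZNF138 at -0.20 (SE 0.06) and ZNF107 at -0.14 (SE 0.05), where the libraries of the groups overlapped. The reads of ZNF680 were 690, 671 and 637 in shNEG against 564, 622 and 549. Lower calls there were not limited to the family. ZNF273 (-0.58), ZNF117 (-0.25) and ZNF736 (-0.12), neighbours outside it that were looked at after the values were seen, were also lower. Of all 22 ZNF genes on chromosome 7, 11 were lower and 4 higher. Promoter likeness and position were not tested apart. ZNF431, whose stretch is 93.3% identical to that of ZNF714, had 1086, 1092 and 1073 reads in shNEG and 972, 1128 and 1091 in shSPINK2, which overlap (log2 fold change -0.04, SE 0.06, limma adjusted p = 0.539). ZNF430 was at -0.14 (SE 0.07, adjusted p = 0.0749). At a link of 65% the family had 13 genes, 10 of them lower and 0 higher, and at 85% it had 6 genes, 4 lower and 0 higher. A second family of 6 genes on chromosome 19 had 2 lower calls, ZNF611 and ZNF468, and 1 higher, ZNF808.

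**Figure D5:**
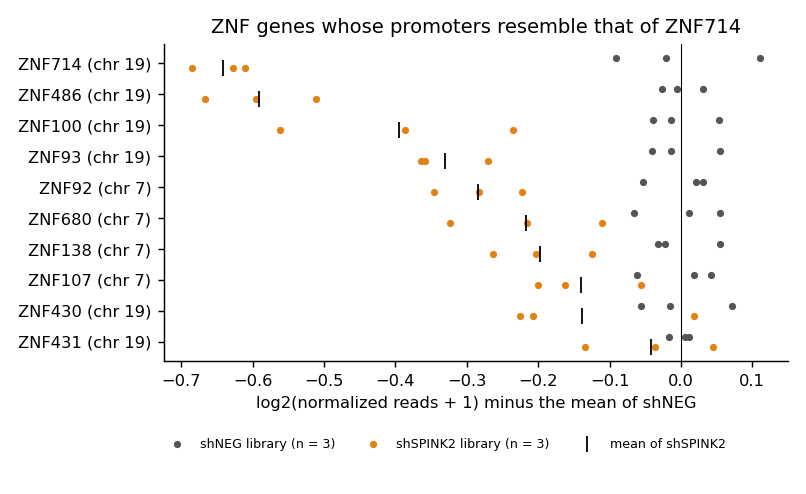
Values of single libraries for the 10 ZNF genes of the promoter family that holds ZNF714, as log2 of scaled reads plus 1 after subtraction of the shNEG mean (horizontal axis). Grey points are the 3 shNEG and orange points the 3 shSPINK2 libraries, and the tick is the shSPINK2 mean. The means run from -0.64 for ZNF714 to -0.04 for ZNF431, where the groups overlap.

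The ETS-type word CCGGAAG, searched on both strands, was in the 300-base promoters of 85 of the 185 matched ZNF genes (45.9%). It was in 21.4% of those of 6338 other genes with a mean of 500 or more and in 10.7% of all 27305 promoters. ZNF genes with the word had 26 lower and 27 higher calls and a median log2 fold change of -0.0029, and those without it 31 and 43 and a median of 0.05. CCAAT was in 44.3% of the ZNF promoters and 36.6% of the other expressed genes, and TATAAA in 2.16% and 4.77%. The word TGACGTCA of the cyclic AMP element was in 5.41% and 3.57%. The 4 E2F-type words TTTGGCGC, TTTCGCGC, TTTCCCGC and TTTGCCGC were in 7.03% and 5.90%, with 3 lower and 6 higher calls among the 13 ZNF genes that hold one. ZNF367, the lowest gene, is among them, and the 120 bases before its start hold such a word at 2 places, here in capitals with 1 CCAAT box, all on the opposite strand.
ZNF367, chr9:96418371-96418490, minus strand: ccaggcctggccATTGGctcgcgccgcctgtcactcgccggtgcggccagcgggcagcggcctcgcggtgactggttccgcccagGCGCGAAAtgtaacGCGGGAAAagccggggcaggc

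Protein features were read from the canonical transcripts of the 214 protein-coding genes. The pattern of a KRAB box was found in 106, of which 29 were lower and 39 higher (median log2 fold change 0.03), and not in 108, of which 38 were lower and 39 higher (median -0.01). With the pattern these calls are 27.36% and 36.79%, and without it 35.19% and 36.11%. The shares over all genes tested with a mean of 500 or more were 39.1% lower and 32.8% higher. No class of protein feature was tested against these shares. A pattern search misses divergent boxes. Within chromosome 19 the 74 genes with the pattern had 17 lower and 33 higher calls, and elsewhere the 32 genes with it had 12 and 6. Finger counts ran from 0 to 40 by the pattern used, with a median of 9. Over the classes of finger number the counts followed no steady order. The 35 genes with 3 to 5 fingers had 9 lower and 13 higher calls (median 0.05), the 59 with 6 to 9 had 16 and 21 (0.01), and the 65 with 10 to 14 had 24 and 22 (-0.03). The 39 genes with 15 or more fingers had 9 lower and 17 higher calls and a median of 0.09. The 16 genes with 2 fingers or fewer, ZNF367 and ZNF207 among them, had 9 lower and 5 higher calls and a median of -0.17.

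Words of the SPINK2 shRNAs were searched in the 3′ untranslated regions of the 213 ZNF genes that have one. The methods name only shRNA1, and shRNA2 is described in the labels alone. Both targets lie across exon junctions in the coding sequence of SPINK2 on chromosome 4 (minus strand), and are shown with the letters pairing with guide positions 2 to 8 in capitals. The third line marks a second stretch of shRNA2, which pairs with positions 6 to 12. That word came from an earlier scan of these same libraries, ZNF genes included, so its values here are no independent support.
shRNA1 target: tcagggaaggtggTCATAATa
shRNA2 target: cgccaaactgctcTCAGTATa
shRNA2 target, inner word: cgccaaactGCTCTCAgtata

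TCATAAT was in 32 genes, with 11 lower and 14 higher calls and a median log2 fold change of 0.09, and the 181 genes without it had 56 and 63. TCAGTAT was in 38, with 13 lower and 19 higher calls and a median of 0.09, and the 175 without it had 54 and 58. Among other genes with a mean of 500 or more, 392 of those with TCATAAT were lower and 398 higher, and 481 and 456 of those with TCAGTAT. The inner word GCTCTCA was in 31 genes, of which 13 were lower and 9 higher, with a median of -0.11, and the 182 genes without it had 54 lower and 68 higher calls and a median of 0.04. Over 829 other genes with a mean of 500 or more and the word, 497 were lower and 147 higher, with a median of -0.22, against -0.01 over 6940 without it. The word was present in ZNF367, ZNF212, ZNF275, ZNF282 and ZNF496, which are among the 11 lowest genes and of which the last pair was chosen after the values were seen, as was ZNF641. It was also present in ZNF438, ZNF664 and ZNF641, which are among the 9 genes with the word that were called higher, and absent from ZNF714, ZNF530 and ZNF486. The part of the shRNA in these changes was not tested. Sites of 3 lowered and 2 raised genes follow, with the word in capitals. They match the shRNA2 target only over 7 to 11 bases, the longest match being that of ZNF641.
ZNF367, chr9:96386431-96386457, minus strand: tagaatttttGCTCTCAaatatgtgat
ZNF212, chr7:149255107-149255133, plus strand: agtgcctggtGCTCTCAaattgtctca
ZNF275, chrX:153348681-153348707, plus strand: ccttcatgagGCTCTCAttagaaattt
ZNF438, chr10:30844632-30844657, minus strand: ttcaaatacaGCTCTCAgtgaaaaca
ZNF641, chr12:48337426-48337452, minus strand: ccttgctcctGCTCTCAgtgtgttctt

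Reads of related ZNF genes can be hard to tell apart. A stretch of 150 bases, the length of 1 read, was identical in the transcript of another ZNF gene in 12 of the 217 genes, and over more than 10% of such stretches in 1, ZNF324 (30.3%). The 8 lowest and 8 highest genes and the 10 genes of the promoter family of ZNF714 had no such stretch, and ZNF808 had it over 2.33%. Exons of 68 genes overlap those of another tested gene, 47 of them on the other strand. The sources do not say whether the counting used the strand or how it treated shared exons. These values may therefore hold reads of a neighbour or lack reads of their own. ZNF397, which overlaps ZSCAN30, ZNF664, which overlaps CCDC92, and ZNF146, which overlaps ZNF565, are among those with an overlap on the other strand. ZNF714 overlaps VN1R81P and ZNF395 overlaps FBXO16 on the same strand.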

How the data were processed

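mRNA libraries of the 6 samples were sequenced as paired reads of 150 bases. The authors aligned them with STAR to hg38, counted genes with featureCounts and fitted DESeq2 (STAR 2.7.11 and DESeq2 1.40.0 in the submitters' processing notes). The deposited signal is 1 mean per gene of counts divided by size factors. The deposited log2 fold changes and standard errors, which the authors took from DESeq2, were used to solve for the reads, and the deposited p-values were not used. None of these is printed or compared. Every library adds whole reads to the mean, and size factors were read from means shared by genes with 1 read. Whole-number solutions were kept where a negative binomial fit returned the authors' fold change at their standard error. The sign of that fold change in genes with 1 read divided the libraries into groups. One solution was found for 15449 of 15465 genes with means from 10 to under 10000, and the other 16 had more than 1. By the mean alone, 0 of the 217 genes had a single solution. With the mean shifted, 0 of 434 searches of the 217 genes gave a single accepted solution, and 37 of 6000 searches of genes sampled from those with a mean of 10 or more did. On simulated data 5986 of 5996 genes were recovered, and limma called 42 of 50 genes lowered by 1 (log2) and 7 of 5738 unchanged genes. It called 39 of 49 genes lowered by 0.5 and 34 of 49 raised by 0.5. Smaller changes were not simulated, and 130 of the ZNF genes called lay under 0.5. The simulation changed 200 genes, where 29.5% of the genes tested here were called lower and 28.1% higher. It therefore does not show how reliable calls of small changes are.

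Differences were tested with limma 3.58.1 in R 4.3.3 (trend, 2 groups, Benjamini-Hochberg over 15449 genes) on log2(scaled reads + 1), so log2 fold changes carry the pseudocount of 1. The libraries have no replicate number that could block them. edgeR 4.0.16, DESeq2 1.42.0, a pseudocount of 5, other limits on the mean, centred libraries and each library left out were tried. Named genes are SPINK2, the 8 lowest and 8 highest called ZNF genes, the 3 with the highest mean, the pairs at the limit of 500 and the role lists. The genes and lists were chosen with earlier results of these data known. Transcripts are those of GENCODE 44, and promoters RefSeq (250 bases before to 50 after the start). One further marker of other cells is not reported here.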

Additional observations from a re-analysis of the deposited data

How the results depend on the processing

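The 217 genes had 148 calls, 134 with DESeq2, 148 with edgeR and 130 to 147 with each library left out (61 to 68 lower, 67 to 80 higher). With each library left out, and with every other test, pseudocount, limit on the genes tested and centring, the same 56 genes were called lower and 61 higher, and 0 called genes changed sign. A log2 fold change over 0.5 left 18 (10 lower, 8 higher) and over 1 left 0 (0 lower, 0 higher), and a mean of 1000 or more left 86 of fewer genes (42 lower, 44 higher). The median of 0.02 (0.0058 to 0.028 with each library left out) became 0.057 with centred libraries, which move all genes by 0.04, 0.039 at a mean of 250 or more, and -0.026 at 1000 or more. Centring gave 60 lower and 90 higher calls. ZNF146 reversed to 0.027 (centred) and 0.042 (without shSPINK2 c), its range with each library left out being -0.066 to 0.042, and ZNF281 reversed to -0.0096 (without shSPINK2 b), with a range of -0.0096 to 0.109. The cause was not tested. No paired analysis was possible because the recovered libraries carry no replicate number. Genes with means of 10000 or more were not tested, and the low reads of SPINK2 limit its precision.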

Other observations

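Zinc finger genes of 5 other families, chosen after their values were seen, were counted at a mean of 500 or more, where 39.1% of all genes tested were called lower and 32.8% higher. Of 7 KLF genes, a family of regulators that bind GC-rich promoters, 5 were called lower in shSPINK2 and 0 higher (limma adjusted p under 0.05), with a median log2 fold change of -0.21. Of 4 ZKSCAN genes, which join a KRAB box to a SCAN domain, 4 were higher, with a median of 0.39. Of 28 ZBTB genes, which carry a BTB domain for dimerisation, 5 were lower and 12 higher, with a median of 0.05. Of 3 ZSCAN genes 1 was lower and 1 higher (median 0.02), and of 5 ZFP genes 1 was lower and 1 higher (median 0.08). No family was tested against another.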
